A study of Rattus norvegicus with 9 samples.

Results

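The 10 chemokine genes of the rat uterus described here are Ccl2, Ccl7, Ccl11, Ccl20, Cxcl1, Cxcl2, Cxcl10, Cxcl12, Cx3cl1 and Cxcl16. Their probe sets were found on an Affymetrix rat array by the gene symbol of the platform annotation, and the probe set with the highest mean intensity stood for its gene. The 10 genes had 12 probe sets, 3 of them for Cxcl12. A probe set was tested if at least 3 of the 9 arrays gave it a value no lower than their own 40th percentile, a limit of 15.2 to 16.2 intensity units. Of the 10 genes, 7 passed, among 10973 genes tested in all. Ccl2, Ccl7 and Cxcl2 were too dim and are given by their values alone.

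The 9 arrays held total RNA of uterine tissue from female rats in 3 groups of 3 arrays. Treatment rats (arrays 31, 32 and 33) were given electroacupuncture at Guanyuan and Sanyinjiao in sessions of 15 min, on 7 days in a row before an ovulation induction and further on during it. The induction was an intraperitoneal injection of PMSG, pregnant mare serum gonadotropin, at 0.5 U per rat, a hormone that drives follicle growth, and after 48 h the same amount of human chorionic gonadotropin (HCG), which triggers ovulation. Model rats (arrays 21, 22 and 23) had the induction alone, and control rats (arrays 41, 42 and 43) were untreated. The labels give neither a strain, an age nor an oestrous stage. They count 18 rats in groups of 6 without saying that each array was a separate animal, so p-values measure the spread between these arrays.

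Chemokines are small secreted or membrane-bound proteins that guide leukocytes along a gradient through G protein-coupled receptors. In the rodent uterus they take part in the traffic of macrophages, eosinophils, neutrophils and natural killer cells that follows the ovarian steroid cycle. Inflammatory chemokines are induced through the transcription factor NF-kB or by interferons, whereas others, such as CXCL12, are made steadily by stromal cells.

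Some of these genes lie side by side in the RefSeq gene table of the rat (assembly GRCr8). Ccl2, Ccl7 and Ccl11 follow each other on chromosome 10, with Ccl12 next. Cxcl2 is the neighbour of Cxcl1 on chromosome 14, where Cxcl10 lies between Cxcl11 and Cxcl9. Cx3cl1 lies between Ccl17 and Ccl22 on chromosome 19. RefSeq promoter windows, from 250 bases before to 50 after the gene's start, were matched for 8 of the 10 genes, all but Ccl2 and Ccl11. Both strands were searched for 4 motifs: the NF-kB consensus, GAAANNGAAA for interferon regulatory factors, TGANTCA for AP-1 and TATAAA. Overlapping matches were each counted.

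Windows of 3 genes are shown because they belong to the gene with the smallest p in model rats (Ccl20), the one with the smallest p in treatment rats (Cxcl10) and one with no motif match (Cxcl12). Capitals mark the matches, on either strand. The windows are chr9:91836909-91837208 on the plus strand for Ccl20, chr14:15988816-15989115 on the plus strand for Cxcl10 and chr4:152060531-152060830 on the plus strand for Cxcl12, all in GRCr8.
Ccl20: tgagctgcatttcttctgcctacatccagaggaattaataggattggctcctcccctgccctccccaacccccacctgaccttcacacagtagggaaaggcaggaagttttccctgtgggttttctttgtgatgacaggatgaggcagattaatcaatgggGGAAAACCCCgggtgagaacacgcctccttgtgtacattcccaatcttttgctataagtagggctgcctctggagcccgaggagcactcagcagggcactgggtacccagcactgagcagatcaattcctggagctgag
Cxcl10: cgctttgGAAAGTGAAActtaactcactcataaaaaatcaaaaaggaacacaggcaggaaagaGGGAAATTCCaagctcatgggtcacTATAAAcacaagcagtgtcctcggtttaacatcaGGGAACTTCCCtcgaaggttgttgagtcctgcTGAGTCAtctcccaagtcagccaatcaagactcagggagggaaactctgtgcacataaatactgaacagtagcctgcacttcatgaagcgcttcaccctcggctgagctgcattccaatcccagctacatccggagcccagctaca
Cxcl12: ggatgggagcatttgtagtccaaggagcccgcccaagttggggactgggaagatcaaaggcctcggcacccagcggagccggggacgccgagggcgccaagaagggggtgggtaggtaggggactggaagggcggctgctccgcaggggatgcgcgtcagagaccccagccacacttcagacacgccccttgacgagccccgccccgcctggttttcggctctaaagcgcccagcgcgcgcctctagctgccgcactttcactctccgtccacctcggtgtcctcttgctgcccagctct

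The capitals of Ccl20 are 1 match to the NF-kB consensus on the minus strand, at bases 162 to 171 of the window. Those of Cxcl10 are 3 NF-kB matches, 2 of which overlap (bases 123 to 133), 1 GAAANNGAAA, 1 TGANTCA and 1 TATAAA. An NF-kB match was found in 5 of the 8 windows (Ccl7, Ccl20, Cxcl1, Cxcl2 and Cxcl10) and in 7.51% of all 33469 windows of the table. GAAANNGAAA was found in Cxcl10 alone among the 8 (3.92% of all), TGANTCA in Ccl7 and Cxcl10 (7.33%), and TATAAA in Ccl7, Cxcl10 and Cx3cl1 (14.2%). The windows of Cxcl12 and Cxcl16 held none of the 4. A match is only a string of letters in a window.

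The arrays had medians of 23.5 to 23.96 intensity units. Among the controls, array 43 was unlike the rest: across probe sets it correlated on the log2 scale at r = 0.9446 with control 41 and 0.9594 with control 42, against 0.9889 between those 2, and at 0.985 with model 21. C3, a complement gene that oestrogen induces in the rat uterus, read 2462 to 2999 on treatment arrays, 116 to 1733 on model arrays, 5116 and 4301 on controls 41 and 42, and 13.2 on control 43. Where a call against the controls changed without control 43, or a chemokine's difference changed sign, this is stated too. Of 8 uterus markers with a probe set 7 passed the filter, including Hoxa10, Hoxa11 and Pgr. Esr1, the oestrogen receptor gene, did not, at 4.92 to 6.10 on its probe set. Of 9 ovary, oviduct and adipose markers with a probe set 2 passed, Cyp11a1 and Adipoq.

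None of the 7 chemokine genes passed limma's moderated test at an adjusted p under 0.05 in any comparison, while in treatment against control Cxcl10 and Ccl11 were the 2 with an unadjusted p under 0.05, both lower. In treatment against model that held for Cxcl10 alone, also lower, and in model against control for Ccl20 alone, which was higher. Ccl11 passed the filter through the controls and Ccl20 through induced arrays, where each was high. The p-values and lack of overlap of these genes against control are therefore no independent test. Over all genes, treatment against control called 0.51% at the adjusted threshold and 17.4% at the unadjusted one, treatment against model called 0.0% and 14.7%, and model against control 0.0273% and 12.4%. The chemokine groups did not overlap for 3 of 7 genes in treatment against control (background 23.3%), 2 of 7 in treatment against model (28.0%) and 1 of 7 in model against control (14.5%). The last 2 of these counts stood near the background share, and the first was above it by a gene or so. The median log2 fold change of the 7 was -0.297 in treatment against control, -0.267 in treatment against model and -0.031 in model against control, beside -0.037, -0.054 and 0.016 over all genes. The comparisons share arrays: both sets of induced rats were set against the same 3 controls.

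**Figure D1:**
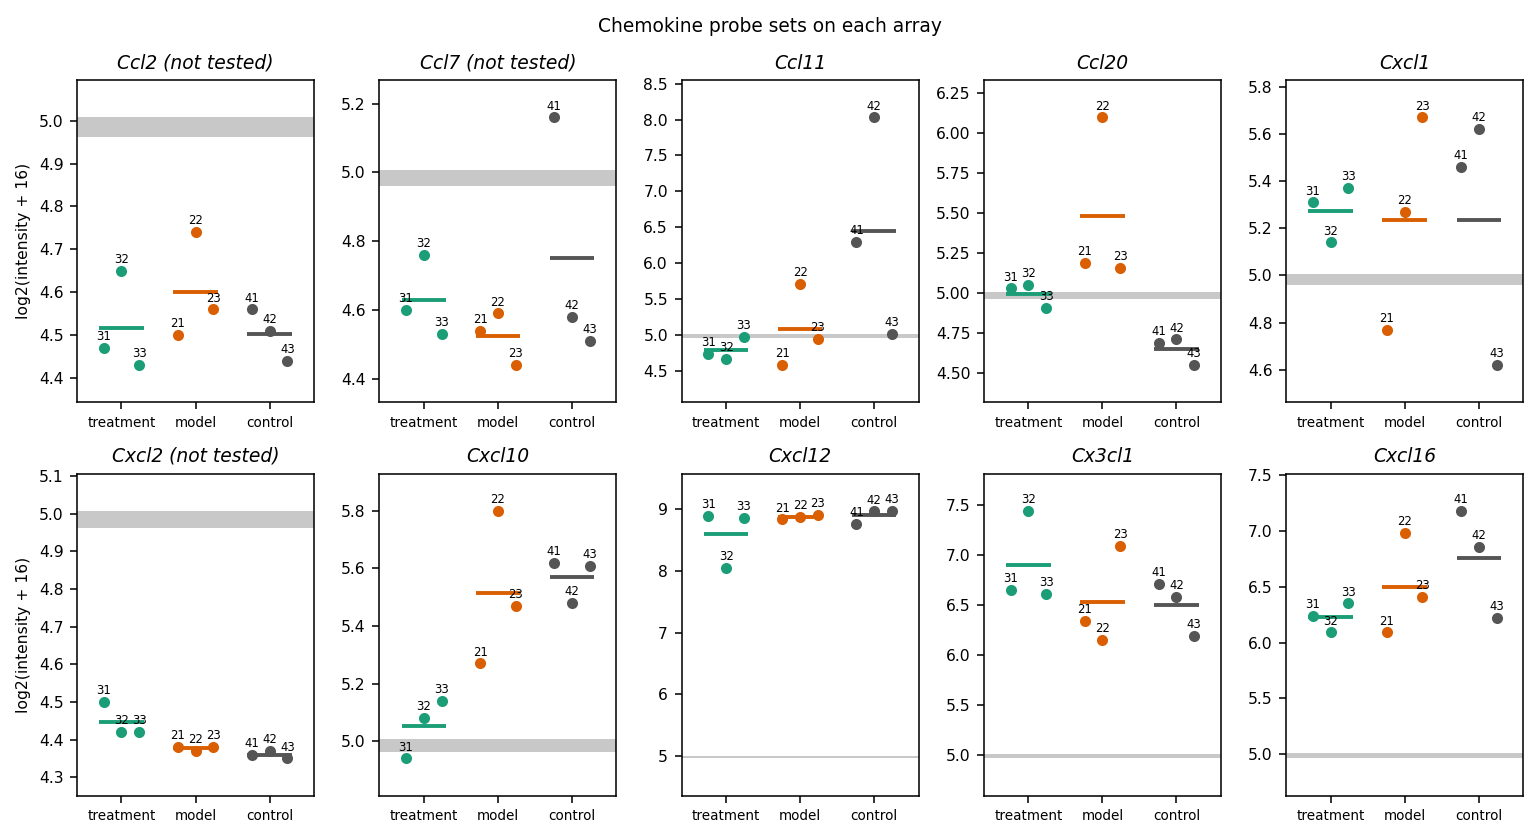
Level of each chemokine gene on each array as log2(intensity + 16), each panel with its own axis, with treatment, model and control arrays from left to right; points are arrays with their numbers, bars are group means and the grey band is the range of the arrays' 40th percentiles. Ccl11 was high on controls 41 and 42 alone, Ccl20 stood above its controls on all 6 induced arrays, Cxcl10 was lower on the 3 treatment arrays than on the other 6, and Ccl2 and Cxcl2 stayed under the band on all 9.

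Ccl11 encodes eotaxin, the ligand of CCR3 that draws eosinophils into the uterus under oestrogen. Its intensities, in the order of the array numbers, were 10.6, 9.39 and 15.4 on treatment arrays, 7.86, 36.3 and 14.6 on model arrays, and 63.0, 245 and 16.2 on control arrays. Controls 41 and 42 were the 2 highest of the 9, all treatment arrays lay below all controls, and model 22 lay above control 43. The 3 controls and model 22 were the arrays on which Ccl11 reached the 40th percentile. Ccl11 thus passed the filter through the controls, the group where it was high. Its p-values and lack of overlap against control are therefore no independent test. On the log2(intensity + 16) scale, on which all fold changes here are given and which understates the change of dim genes, Ccl11 averaged 4.79 ± 0.16 in treatment, 5.07 ± 0.58 in model and 6.45 ± 1.51 in control rats (SD, n = 3 arrays each). The log2 fold change was -1.66 in treatment against control (SE 0.65, 95% CI -3.15 to -0.16, limma adjusted p = 0.251) and -1.37 in model against control (CI -2.87 to 0.12, adjusted p = 0.426). Treatment and model differed by -0.28 (CI -1.78 to 1.21, adjusted p = 0.848).

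The value for Ccl11 depended on control 43 and control 42. Control 43 was its lowest control and control 42 its highest. Leaving out control 43 thus raised the control mean, and leaving out control 42 lowered it. Without control 43, Ccl11 passed in both comparisons and was lower, with a log2 fold change of -2.38 in treatment (adjusted p = 0.0301) and of -2.09 in model rats (adjusted p = 0.0338). That fit called 6.56% of all genes in treatment against control and 12.6% in model against control. Without control 42, the changes were -0.87 and -0.58. With 1 or 64 added before log2 in place of 16, they ran from -2.37 to -0.95 in treatment and from -1.91 to -0.82 in model rats, and the adjusted p stayed over 0.05. In whole tissue, fewer cells of a type and less RNA per cell cannot be told apart.

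Markers of other cells were set beside Ccl11. Epithelial markers, like Ccl11, were highest on controls 41 and 42, though in the opposite order, and eosinophil and mast cell markers were not. This was not particular to epithelial markers. Summed interferon response genes (5670.1 and 4513) and ovary, oviduct and adipose markers (468.9 and 393.2) were highest on controls 41 and 42 too. The summed intensity of 14 epithelial markers was 4232 to 6576 on treatment arrays, 3671 to 4897 on model arrays, 20229 and 14820.1 on controls 41 and 42, and 4804 on control 43. Of 14 eosinophil and mast cell markers with a probe set 4 were tested, with sums of 90.0 to 109.5, 84.4 to 95.6 and 80.4 to 89.5 in treatment, model and control rats, and the eosinophil granule genes Epx and Prg2 were below the filter. Sums this low over 4 genes mean dim probe sets, which show little about eosinophils or mast cells. The part of these cells in the levels of Ccl11 was not tested. Ccr3, the receptor of eotaxin, read 14.9 to 20.2 in treatment, 10.9 to 17.5 in model and 14.1 to 14.9 in control rats, close to the filter limit throughout.

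Ccl20 encodes the chemokine ligand of CCR6, made by mucosal epithelium and attracting dendritic cells and lymphocytes. It read 16.7, 17.2 and 14.1 on treatment arrays, 20.5, 52.6 and 19.7 on model arrays, and 9.88, 10.1 and 7.50 on control arrays. The groups did not overlap in any pairing: model arrays were highest, treatment arrays between and controls lowest, with model 22 far above the rest. Mean log2 levels were 5.0 ± 0.08 in treatment, 5.48 ± 0.53 in model and 4.65 ± 0.08 in control rats (SD, n = 3). Model against control differed by 0.83 (SE 0.22, CI 0.32 to 1.34, limma adjusted p = 0.255). Treatment differed from control by 0.35 (CI -0.16 to 0.85, adjusted p = 0.444) and from model by -0.49 (CI -0.99 to 0.02, adjusted p = 0.358).

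All 3 controls of Ccl20 lay under their 40th percentile, so the size of its difference is uncertain. It reached that limit on induced arrays alone, so it passed the filter through the groups where it was high. Its p-values and lack of overlap against control are therefore no independent test. Model against control was 1.51 with 1 added before log2 and 0.36 with 64, and the adjusted p stayed over 0.05 under every alternative run, from 0.0828 to 0.606. Without model 22 the difference was 0.52, and without control 43 it was 0.78. Model 22 was also the highest array for the macrophage markers, whose sum over 12 genes ran from 1242 to 1844 in treatment rats, from 1179.5 to 4719.8 in model rats and from 1582 to 3831 in control rats. The summed T and NK cell markers, 8 genes, ran from 149.9 to 194, from 172 to 381 and from 147 to 190.4 in the same order, again highest on model 22. The part of these cells in the Ccl20 level was not tested. Ccr6 itself read 20.1 to 23.8 in treatment, 18.2 to 33.3 in model and 16.2 to 22.9 in control rats.

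Cxcl10 encodes the interferon-induced ligand of CXCR3 on T and NK cells. Its intensities were 14.6, 17.9 and 19.3 on treatment arrays, 22.5, 39.8 and 28.3 on model arrays, and 33.1, 28.7 and 32.8 on control arrays. The 3 treatment arrays were the lowest of the 9, while model and control arrays overlapped. On the treatment arrays Cxcl10 lay at percentiles 37.6, 42.9 and 44.9, close to the filter limit, and under it on treatment 31. Cxcl10 averaged 5.05 ± 0.11 in treatment, 5.51 ± 0.27 in model and 5.57 ± 0.08 in control rats (log2, SD, n = 3). Treatment differed by -0.52 from control (SE 0.13, CI -0.81 to -0.22, limma adjusted p = 0.124) and by -0.46 from model (SE 0.13, CI -0.75 to -0.16, adjusted p = 0.286). Model and control differed by -0.06 (CI -0.35 to 0.24, adjusted p = 0.853). Control 43 lay with the other controls for this gene, and without it the treatment difference from control was -0.50 (adjusted p = 0.0913).

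Genes of the interferon response and the other CXCR3 ligands were set beside it. Over 16 interferon response genes tested, the summed intensity was 2519, 3861 and 2628 in treatment, 2753, 4199 and 3338 in model, and 5670.1, 4513 and 2991 in control rats, so the groups overlapped. Cxcl9, the neighbour of Cxcl10 and also a CXCR3 ligand, read 26.1, 11.4 and 18.2 on treatment arrays, 27.3, 63.6 and 47.0 on model arrays, and 23.6, 19.2 and 38.8 on control arrays. Its treatment against model difference was -0.82 (limma adjusted p = 0.286) and its treatment against control difference was -0.32 (adjusted p = 0.555). Cxcl11, the third ligand of the receptor, read 11.9 to 18.1, 11.7 to 24.9 and 15.1 to 20.7 in treatment, model and control rats. Cxcr3 read 17.0 to 20.6, 17.6 to 35.5 and 15.1 to 20.3.

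Cxcl12 encodes the stromal ligand of CXCR4 and of the scavenger receptor ACKR3. The main probe set (1369633_at) read 459.6, 249 and 447 on treatment arrays, 438, 453 and 461 on model arrays, and 416, 482 and 487 on control arrays. Treatment 32 stood alone below the other 8. Treatment differed from control by -0.30 (CI -0.77 to 0.18, limma adjusted p = 0.482) and from model by -0.27 (CI -0.74 to 0.21, adjusted p = 0.546), and model from control by -0.03 (CI -0.51 to 0.44, adjusted p = 0.953). Without treatment 32 the treatment differences were -0.02 and 0.01, and without control 43 the differences from control were -0.26 in treatment and 0.0074 in model rats. A second probe set (1388583_at) read 204, 59.7 and 160.4, then 142, 172 and 202, then 150.0, 106 and 182 in treatment, model and control rats. It too was lowest on treatment 32, and correlated with the main one at r = 0.82 over the 9 arrays. The third (1387655_at) read 14.1 to 23.5, next to the filter limit.

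Endothelial and stromal markers were low on treatment 32 as well. The summed intensity of 9 endothelial markers was 440.1 on treatment 32 and 1067 and 953 on the other treatment arrays, against 1127 to 1304 on model and 746 to 1529 on control arrays. That of 11 stromal markers was 8628.5 on treatment 32 and 13671 and 12908 on the others, against 11539 to 15237 on model and 8517 to 15939.9 on control arrays. Their part in the low Cxcl12 of treatment 32 was not tested. Ackr3 read 92.2, 70.8 and 94.6 on treatment arrays, 134, 203 and 151 on model arrays, and 61.8, 67.5 and 133 on control arrays. Model arrays were above all others, by a log2 fold change of 0.84 over control (limma adjusted p = 0.293), and treatment against model was -0.80 (adjusted p = 0.286). Without control 43 Ackr3 passed in model against control, higher by 1.13 (adjusted p = 0.0108), in a fit that called 12.6% of all genes. Cxcr4 read 29.0 to 60.5, 38.8 to 95.3 and 40.3 to 107 in treatment, model and control rats.

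Cx3cl1 (fractalkine) and Cxcl16 encode chemokines tethered to the membrane on a mucin stalk and shed by metalloproteinases. Cx3cl1 read 84.1, 157 and 81.5 on treatment arrays, 65.2, 55.0 and 120.3 on model arrays, and 88.5, 79.9 and 56.8 on control arrays. Treatment 32 and model 23 were the highest, and all 3 groups overlapped. Its log2 fold change was 0.40 in treatment against control (CI -0.28 to 1.09, limma adjusted p = 0.509), 0.37 against model (CI -0.32 to 1.06, adjusted p = 0.563) and 0.04 in model against control (CI -0.65 to 0.72, adjusted p = 0.964). Without treatment 32 the treatment differences were 0.13 and 0.10, and without control 43 the differences from control were 0.25 in treatment and -0.12 in model rats. Cx3cr1, its receptor on monocytes and NK cells, read 24.4 to 28.3, 23.2 to 25.3 and 18.5 to 25.7 in treatment, model and control rats.

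Cxcl16, the ligand of CXCR6 and a scavenger receptor of macrophages, read 59.4, 52.0 and 65.7 on treatment arrays, 52.0, 110.1 and 69.0 on model arrays, and 129, 99.98 and 58.6 on control arrays. Controls 41 and 42 and model 22 were high, and control 43 lay among the treatment arrays, so the groups overlapped. The log2 fold change was -0.53 in treatment against control (CI -1.17 to 0.11, limma adjusted p = 0.36), -0.26 in model against control (CI -0.90 to 0.38, adjusted p = 0.679) and -0.27 in treatment against model (CI -0.90 to 0.37, adjusted p = 0.65). Without control 43, the first was -0.79 (adjusted p = 0.0935) and the second -0.53 (adjusted p = 0.181). The same 3 arrays had the highest sums of macrophage markers, 3831 and 3016 on controls 41 and 42 and 4719.8 on model 22, with 2956 on model 23. The part of macrophages in the Cxcl16 level was not tested.

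**Figure D2:**
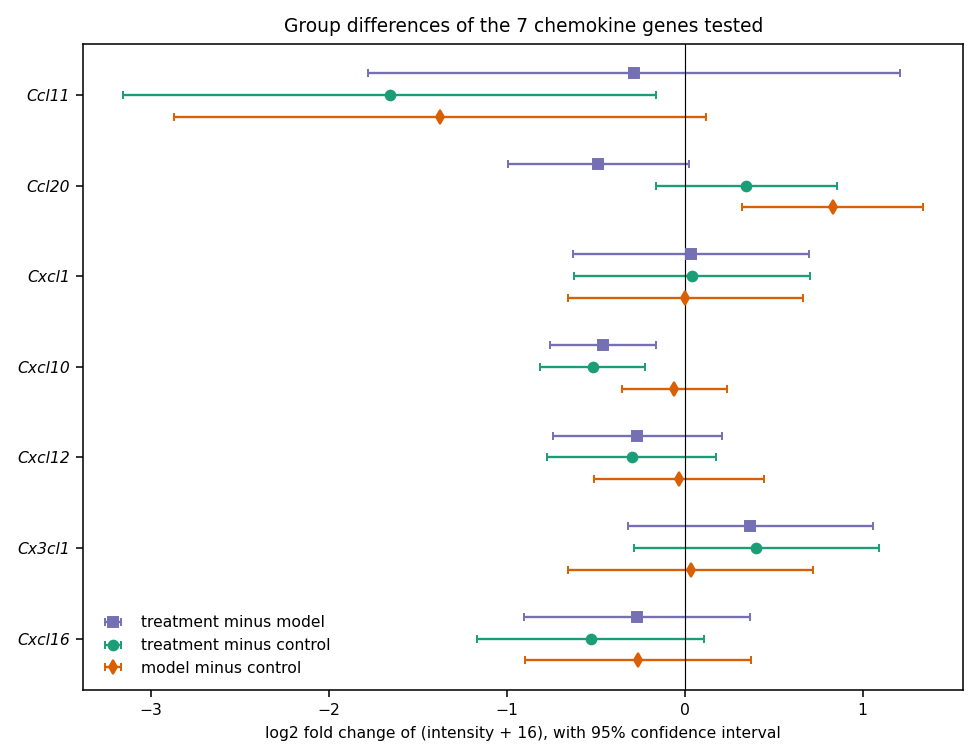
Log2 fold change of the 7 tested chemokine genes with its 95% confidence interval, on the log2(intensity + 16) scale, for treatment minus model, treatment minus control and model minus control. The intervals of Cxcl10 in both treatment comparisons, of Ccl11 in treatment minus control and of Ccl20 in model minus control lay clear of 0, and none of these passed after adjustment over all genes.

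Cxcl1 and Cxcl2 encode the CXCR2 ligands that draw neutrophils. Cxcl1 read 23.6, 19.3 and 25.3 on treatment arrays, 11.2, 22.7 and 34.9 on model arrays, and 27.9, 33.3 and 8.51 on control arrays. Its groups overlapped, and its log2 fold changes were 0.04 in treatment against control (CI -0.62 to 0.70, limma adjusted p = 0.957), 0.04 in treatment against model (adjusted p = 0.962) and 0.0042 in model against control (CI -0.66 to 0.67, adjusted p = 0.996). Control 43 was the lowest array, and without it the differences from control were -0.27 in treatment and -0.30 in model rats. Cxcl2 read 6.64, 5.37 and 5.37 on treatment arrays, 4.81, 4.71 and 4.87 on model arrays, and 4.56, 4.74 and 4.45 on control arrays. The treatment arrays were the highest 3, but the highest value lay at percentile 17.6 of its array. In the fit without the filter, the treatment against control difference of Cxcl2 was 0.08 (limma adjusted p = 0.181).

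Ccl2 and Ccl7 encode monocyte chemoattractants that act through CCR2, CCL7 also through other receptors. Ccl2 read 6.22, 9.04 and 5.57 on treatment arrays, 6.55, 10.7 and 7.54 on model arrays, and 7.54, 6.84 and 5.64 on control arrays. It reached the 40th percentile on 0 of 9 arrays, and its groups overlapped. Ccl7 read 8.32, 11.1 and 7.12, then 7.32, 8.16 and 5.76, then 19.9, 7.99 and 6.75 in treatment, model and control rats, and reached the limit on control 41 alone. A probe set this dim does not show that the gene is silent, since the background of these intensities is unknown. In the fit without the filter, Ccl2 and Ccl7 had log2 fold changes of 0.01 and -0.12 in treatment against control, of -0.08 and 0.10 in treatment against model, and of 0.10 and -0.23 in model against control, with adjusted p from 0.589 to 0.934.

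Leaving out single arrays showed which of them carried each difference. Over the 9 such fits, Cxcl10 ranged from -0.56 to -0.46 in treatment against control and from -0.58 to -0.31 in treatment against model. Ccl20 ranged from 0.52 to 0.99 in model against control. Ccl11 ranged from -2.38 to -0.87 in treatment and from -2.09 to -0.58 in model against control. The 2 calls of a chemokine gene in these fits were those of Ccl11 without control 43.

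**Figure D3:**
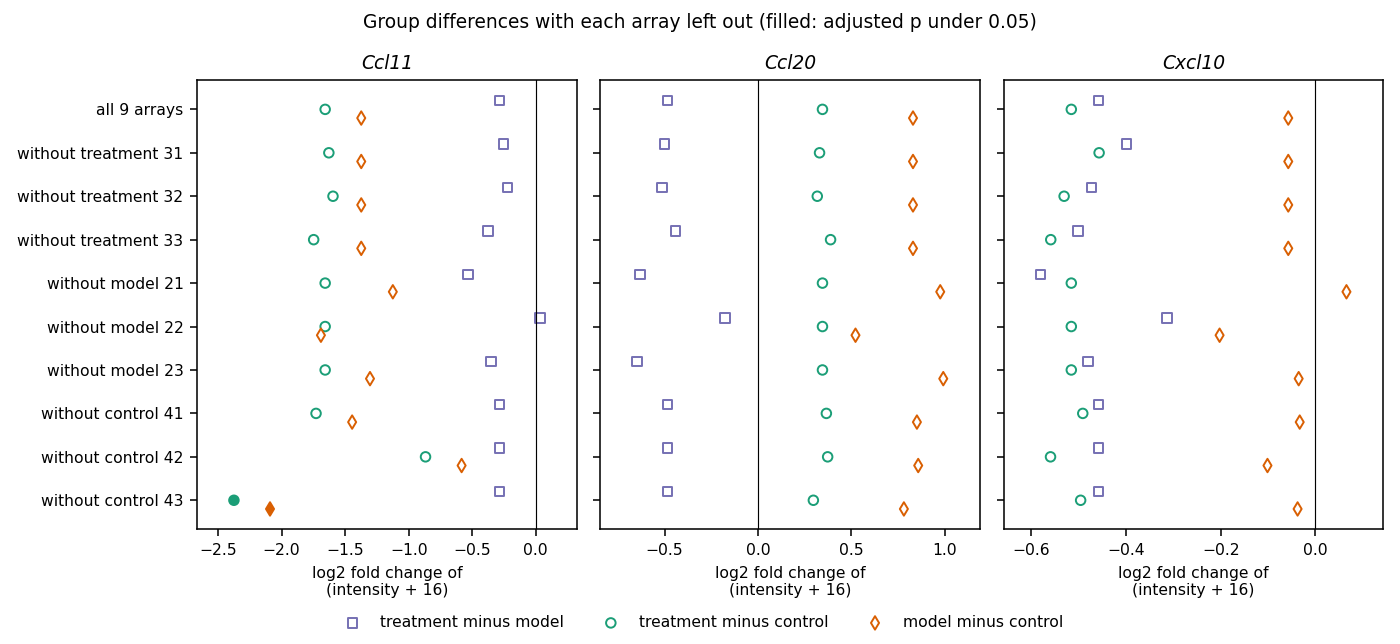
Log2 fold change of Ccl11, Ccl20 and Cxcl10, on the log2(intensity + 16) scale, with all 9 arrays and with each array left out, for the 3 comparisons; filled symbols have an adjusted p under 0.05. The filled symbols are Ccl11 without control 43, at -2.38 in treatment minus control and -2.09 in model minus control.

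Levels of the 7 tested chemokine genes were compared with each other over the 9 arrays as a description, since the arrays share group and tissue makeup. The highest correlations of log2 levels were 0.75 between Ccl11 and Cxcl16 and 0.69 between Cxcl10 and Cxcl16, and the lowest was -0.73 between Cxcl12 and Cx3cl1. Ccl20 correlated with the other 6 at -0.20 to 0.24. Among all other tested genes, the most like each by Pearson r were Cab39 (0.9548) for Ccl11, after 1 numbered locus, Fam180a (0.9625) and Apol3-ps1 (0.9517) for Ccl20, and Polr3c (0.9486) and Rasa4 (0.9343) for Cxcl1. They were Tm2d3 (0.9732) and Zdhhc14 (0.9698) for Cxcl10, and Sh3bp5 (0.964) and Pecam1 (0.9532), an endothelial adhesion molecule, for Cxcl12. For Cx3cl1 they were Fut2 (0.9907), an epithelial fucosyltransferase, and Wfs1 (0.988). For Cxcl16 they were Clec7a (0.9941), the myeloid receptor dectin, and Ms4a6bl1 (0.9799). With 9 arrays and 10973 genes, some high r is found for any gene.

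Of 24 other chemokine genes 21 had a probe set and 13 were tested. In limma 0 of 13 passed in any comparison. An unadjusted p under 0.05 was found for 2 in treatment against control, 2 in treatment against model and 4 in model against control. The shares over all genes were 17.4%, 14.7% and 12.4%. Cxcl14, a chemokine of epithelium, read 45.5, 28.7 and 64.7 on treatment arrays, 104, 101 and 67.0 on model arrays, and 653, 194 and 114 on control arrays. All induced arrays lay below all controls, with log2 fold changes of -2.12 in treatment (adjusted p = 0.124) and -1.32 in model rats (adjusted p = 0.381). Without control 43 it passed in both and was lower, by -2.63 (adjusted p = 0.0172) and -1.83 (adjusted p = 0.041). That fit called 6.56% and 12.6% of all genes. Pf4, a platelet and macrophage chemokine, had the smallest p in model against control, at 0.52 (adjusted p = 0.345). The median of the 13 was 0.09 in treatment against control, -0.34 in treatment against model and 0.04 in model against control.

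Of 18 receptor genes 14 had a probe set and 9 were tested, and again 0 of 9 passed in limma. In treatment against control, treatment against model and model against control, 1, 2 and 1 had an unadjusted p under 0.05. The shares over all genes were 17.4%, 14.7% and 12.4%. Besides Ackr3, Cxcr4, Cx3cr1, Ccr6, Cxcr3 and Ccr3, the tested receptors were Cxcr5, the B cell homing receptor, and the scavengers Ackr1 and Ackr2. Cxcr5 read 177 to 212 in treatment, 145 to 170.0 in model and 144 to 162 in control rats, a log2 fold change of 0.28 over control (adjusted p = 0.228) and of 0.29 over model (adjusted p = 0.286). Treatment arrays did not overlap with either group. Ackr1 read 23.5 to 64.8, 47.4 to 154 and 47.7 to 158, and Ackr2 15.1 to 19.4, 12.2 to 14.5 and 10.9 to 19.7, in treatment, model and control rats. Ccr1, Ccr2, Cxcr1, Cxcr2 and Ackr4 were below the filter.

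Genes that process, present or induce chemokines were counted in the same way. Of 13 tested genes of chemokine processing and presentation, 0 passed in limma. In treatment against control, treatment against model and model against control, 2, 3 and 3 had an unadjusted p under 0.05. The shares over all genes were 17.4%, 14.7% and 12.4%. Adam17, a metalloproteinase that sheds CX3CL1, differed by -0.28 (adjusted p = 0.211) and -0.33 (adjusted p = 0.286) in the treatment comparisons, and Sdc4, a heparan sulphate proteoglycan, by 0.57 in model against control (adjusted p = 0.266). Without control 43, Hpse passed lower in treatment (-0.91, adjusted p = 0.021) and in model rats (-1.06, adjusted p = 0.0111). Sdc1 passed lower in treatment (-0.68, adjusted p = 0.04) and in model rats (-0.70, adjusted p = 0.0273). Sdc2 passed higher in model rats (0.87, adjusted p = 0.0261). That fit called 6.56% of all genes in treatment against control and 12.6% in model against control. Of 18 inflammatory cytokine and NF-kB genes 0 passed, with 4, 1 and 0 at an unadjusted p under 0.05. Log2 fold changes were negative for 12, 11 and 9 of the 18, with medians of -0.12, -0.14 and 0.0. Over all genes 57.8%, 61.1% and 46.5% were negative, with medians of -0.037, -0.054 and 0.016. Of the 4 in treatment against control, Nfkb1, Nfkb2 and Tnfaip3 were lower and Il1a was higher. Il1a, an alarm cytokine, differed by 1.94 and 1.93 in treatment against control and against model (adjusted p = 0.175 and 0.286), and Nfkb2 by -0.31 in model against control (adjusted p = 0.488). Without control 43, Nfkb2 passed lower against control, at -0.79 in treatment and -0.54 in model rats (adjusted p = 0.0057 and 0.0171). Csf3 passed lower in model rats (-0.78, adjusted p = 0.0234).

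Interferon response genes, beside which Cxcl10 is read, had 0 of 16 passing in limma. In treatment against control, treatment against model and model against control, 5, 1 and 2 had an unadjusted p under 0.05. The shares over all genes were 17.4%, 14.7% and 12.4%. Log2 fold changes were negative for 15, 12 and 14 of the 16, with medians of -0.62, -0.14 and -0.51, beside 6343, 6704 and 5099 negative of all 10973 genes and medians of -0.037, -0.054 and 0.016. Stat2 differed by -0.58 in treatment (adjusted p = 0.124) and -0.50 in model rats against control (adjusted p = 0.284), and Gbp2 by -0.67 in treatment against model (adjusted p = 0.286). Without control 43, 7 of the 16 passed in treatment (6.56% of all genes) and 5 in model rats (12.6% of all), and each of these was lower. Stat2, Irf1, Irf9, Oas1a and Oasl passed in both, and Usp18 and Mx1 in treatment rats.

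Of the 12 macrophage markers 0 passed in limma with all arrays, with 1 at an unadjusted p under 0.05 in treatment against control and 0 in each of the other comparisons, and medians of -0.45, -0.59 and 0.15 in treatment against control, treatment against model and model against control. Fcgr1a had the smallest p in treatment against control (-0.76, adjusted p = 0.277), and it passed without control 43 (-1.12, adjusted p = 0.03). Cd14 had the smallest p in treatment against model (1.01, adjusted p = 0.364) and in model against control (-0.81, adjusted p = 0.485). In both it ran against most of its list. In treatment against model 11 of the 12 were lower, beside 61.1% of all genes. In model against control 7 of the 12 were higher, beside 5874 of all 10973 genes. Of the 14 epithelial markers 0 passed, with 4, 2 and 5 at an unadjusted p under 0.05 and medians of -0.65, 0.48 and -0.94. Over all genes 17.4%, 14.7% and 12.4% were under 0.05, with medians of -0.037, -0.054 and 0.016. Prom1 differed by -2.55 in treatment (adjusted p = 0.0625) and -2.34 in model rats against control (adjusted p = 0.162), and Cldn3 by -0.89 in treatment against model (adjusted p = 0.327). Cldn3 ran against its list there, in which 11 of the 14 were higher, beside 4269 of all 10973 genes. Without control 43, 5 of the 14 passed in treatment (6.56% of all genes) and 12 in model rats (12.6% of all), and each of these was lower. Prom1, Krt19, Elf3, Muc1 and Ehf passed in both, and Epcam, Cdh1, Krt7, Krt8, Krt18, Cldn7 and Esrp1 in model rats.

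**Figure D4:**
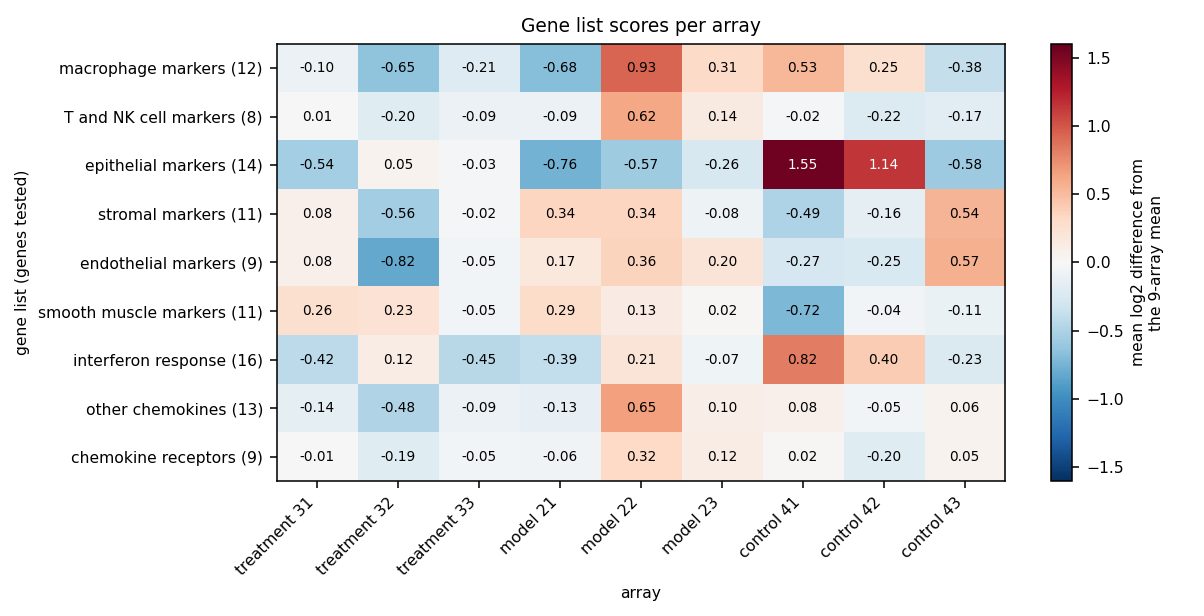
Mean log2 difference of each gene list from its own mean over the 9 arrays, with arrays in columns, lists in rows and the number of genes tested in brackets. Controls 41 and 42 stood high for epithelial markers (1.55 and 1.14) and control 43 low (-0.58), model 22 was the highest for macrophage markers (0.93) and T and NK cell markers (0.62), and treatment 32 the lowest for endothelial markers (-0.82).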

How the data were processed

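Total RNA of rat uterine tissue was labelled with biotin and read on 1 Affymetrix array per sample, per the labels' protocols. The deposited values are normalized intensity per probe set on a linear scale. The tool in the submitters' processing notes is MAS5, without settings or detection calls. The background level is therefore unknown, which limits what dim genes show, and the number of arrays limits the precision. The scanner files were not used here.

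After 57 control probe sets were left out, 31042 remained, of which the platform annotation gave 1 symbol for 20826, several for 436 and none for 9780; 20758 matched the RefSeq gene table. Trimmed means of the arrays differed by at most 1.086-fold, so the deposited normalization was kept. Values were log2(intensity + 16). The filter (40th percentile of the array on at least 3 arrays) kept 19326 probe sets, 14553 of them with 1 symbol, and each of 10973 genes was represented by its highest-mean probe set. Groups are the labels' conditions. The 3 comparisons were contrasts of 1 fit to 9 arrays in limma 3.58.1 (R 4.3.3), by lmFit and a two-sided eBayes test with trended variance and 6 residual df, with Benjamini-Hochberg adjustment over all genes and a threshold of 0.05. The fit was tested on simulated arrays.

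The chemokine genes and the gene lists were chosen with earlier results of these data known. All 10 were named. Of each list, the genes that passed in the fit to all 9 arrays were to be named, or else the 1 with the smallest p, and all receptors tested. No list gene passed there, and those that passed without control 43 were named too, after their values were seen. The 2 genes most like each were taken by Pearson r. Alternatives were 1 or 64 added, median centring or quantile normalization, a 60th percentile filter or none, no or a robust variance trend, the 6 compared arrays alone, other uses of probe sets, a replicate block and each array left out. Their application to the gene lists was added after seeing the data. Promoter windows came from RefSeq. Python 3.11.15 and matplotlib 3.10.9 made the figures.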

Additional observations from a re-analysis of the deposited data

How the results depend on the processing

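Of 429 log2 fold changes of the 7 chemokine genes under 21 alternatives, 410 kept their direction and their side of the threshold, 2 passed it (Ccl11 without control 43) and 17 changed sign, none of them a called value. Of the 17, 14 came with an array left out. In those fits treatment against control ran from -0.2672 to 0.2373 for Cxcl1. Treatment against model ran from -0.5324 to 0.0334 (without model 22) for Ccl11, from -0.1979 to 0.2531 for Cxcl1 and from -0.4132 to 0.0079 (without treatment 32) for Cxcl12. Model against control ran from -0.3039 to 0.2389 for Cxcl1, from -0.2025 to 0.0654 for Cxcl10, from -0.1019 to 0.0074 for Cxcl12 and from -0.2458 to 0.2243 for Cx3cl1. The other 3 were Cxcl1 in model against control, at -0.003 with 64 added, -0.0125 after quantile normalization and -0.0043 after median centring. The cause was not tested. The 60th percentile filter left no value for Ccl11, Ccl20, Cxcl1 and Cxcl10. Chemokine genes called were 0 under the 12 alternatives that kept all arrays of a comparison, and with an array left out 0 to 1 in treatment against control, 0 in treatment against model and 0 to 1 in model against control.

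Over all genes, treatment against control called 56 (19 higher, 37 lower), 27 and 28 after quantile normalization, 27 and 25 with the 6 arrays alone, 27 in all with the replicate block, and 0 (without treatment 33) to 720 (without control 43) with an array left out. Treatment against model called 0, and 0 to 3 with an array left out. Model against control called 3, 1 without the filter or with the 6 arrays alone, and 0 (without model 21) to 1384 (without control 43). Array numbers are unique, and the replicate block took their last digit, which no label ties to an animal or day. Its value changed no call of a chemokine gene. With 3 arrays a group and no detection calls, small differences of dim genes such as Ccl20, Cxcl10 and Cxcl1 were not measurable with certainty.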

Other observations

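Lists of other cells and tissues were counted beside the chemokine genes, and 0 of their tested members passed in limma in any comparison with all arrays. For 11 of 11 smooth muscle markers the log2 fold change was positive in both comparisons with the controls, with medians of 0.42 in treatment and 0.40 in model rats, beside -0.037 and 0.016 over all genes, and 4 genes in each had an unadjusted p under 0.05. Over all 10973 genes 4630 and 5874 were positive, and 17.4% and 12.4% had an unadjusted p under 0.05. Des, the intermediate filament gene of muscle, differed by 0.83 in treatment against control (adjusted p = 0.128), and Lmod1, an actin nucleator of smooth muscle, by 0.88 in model against control (adjusted p = 0.252) and -0.38 in treatment against model (adjusted p = 0.442). Without control 43, Smtn, the gene of smoothelin, passed higher in treatment (0.92, adjusted p = 0.0314) and in model rats (1.11, adjusted p = 0.0146), and Lmod1 in model rats (1.08, adjusted p = 0.0171), in a fit that called 6.56% and 12.6% of all genes. For 9 of 9 endothelial markers the value was negative in treatment against model, with a median of -0.50 beside -0.054 over all genes, of which 6704 of 10973 were negative, and 1 gene at an unadjusted p under 0.05. That gene was Vwf, von Willebrand factor, at -0.76 (adjusted p = 0.286), and at -0.51 in treatment against control (adjusted p = 0.228), while Cldn5, a tight junction gene, differed by 0.65 in model against control (adjusted p = 0.529). Without control 43 Vwf passed higher in model against control (0.46, adjusted p = 0.0467). Of 11 stromal markers 10 were negative in treatment against model (median -0.43), where Pdgfra differed by -1.05 (adjusted p = 0.286), and 10 were positive in model against control (median 0.27), where Col3a1 differed by 0.37 (adjusted p = 0.578). By mean log2 level, treatment 32 was the lowest array of both lists.

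Among lymphocyte markers, Prf1, the gene of perforin, differed by -0.70 in treatment against model (adjusted p = 0.286), Il2rb by 0.53 in model against control (adjusted p = 0.305) and Cd4 by 0.17 in treatment against control (adjusted p = 0.287). In treatment against control, treatment against model and model against control, 1, 3 and 3 of the 8 T and NK cell markers had an unadjusted p under 0.05. The shares over all genes were 17.4%, 14.7% and 12.4%. Cd22 was the B cell marker tested (0.04, -0.02 and 0.05). Of the neutrophil markers 3 were tested, with 0 at an unadjusted p under 0.05, and Lcn2 differed by 2.44 in treatment against control (adjusted p = 0.432), or by 0.82 without control 43 (adjusted p = 0.709). S100a8 and S100a9 differed by 0.19 and -0.11 there. S100a8 had the smallest p of the 3 in treatment against model (-0.30, adjusted p = 0.559) and in model against control (0.48, adjusted p = 0.432). Of the 4 eosinophil and mast cell markers, Cpa3 differed by 0.15 in treatment and 0.09 in model rats against control (adjusted p = 0.217 and 0.492), and Alox15 by 0.18 in treatment against model (adjusted p = 0.293). Of the 7 uterus markers, Pax8 differed by 1.23 in treatment and 0.74 in model rats against control (adjusted p = 0.123 and 0.382), and Hoxa11 by -0.86 in treatment against model (adjusted p = 0.339). In treatment against control, treatment against model and model against control, 5, 5 and 4 of the 7 were lower. Their medians were -0.26, -0.20 and -0.07. Over all genes 57.8%, 61.1% and 46.5% were lower. Hoxa10 and Hoxa11 are in this list and in the stromal list, so these lists are not separate. Without control 43 Foxa2, a factor of uterine glands, passed lower in treatment (-1.32, adjusted p = 0.041) and in model rats (-1.13, adjusted p = 0.0471). That fit called 6.56% and 12.6% of all genes. In treatment against control 1 uterus marker also passed lower with the 6 arrays alone and without model 21, and 1 higher without model 23. Of the ovary, oviduct and adipose markers, Adipoq differed by -1.07 in treatment against control (adjusted p = 0.628), and Cyp11a1 by 0.06 in treatment against model and -0.04 in model against control (adjusted p = 0.576 and 0.771). The sum of these 2 was 39.5 to 206.9 on treatment and 60.7 to 179.1 on model arrays. It was 468.9, 393.2 and 30.4 on controls 41, 42 and 43. Without control 43 Adipoq differed by -2.33 in treatment and -1.93 in model rats against control (adjusted p = 0.081 and 0.0939). Of 11 oestrogen-induced uterine genes 0 had an unadjusted p under 0.05, and Fos differed by -1.65 in model against control (adjusted p = 0.432) and Igf1 by -1.11 in treatment against model (adjusted p = 0.35). In treatment against control the smallest p of this list was that of Lcn2, given above as a neutrophil marker (2.44, adjusted p = 0.432). Lcn2 is in both lists, so its value does not tell these apart. Without control 43, Fos passed lower (-2.47, adjusted p = 0.0495) and Igf1 higher (1.07, adjusted p = 0.0342) in model against control, and in treatment against control 0 of the 11 passed in limma, with 0 at an unadjusted p under 0.05.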
